A study of Mus musculus with 16 samples.

Results

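The matrix metalloproteinases (MMP), their tissue inhibitors (TIMP), the ADAMTS proteases and the ADAMTS-like proteins were followed in the aorta of mice with reduced kidney mass. Members were the protein-coding genes whose symbol is Mmp, Timp, Adamts or Adamtsl followed by a number, which gave 50 genes of the 54532 listed. They comprised 22 Mmp, 4 Timp, 19 Adamts and 5 Adamtsl genes. Mmp1a carries another biotype in the table and was not counted. Each aorta came from 1 male C57BL/6J mouse and gave 1 RNA-seq library, with 16 mice in all and 4 in each group. The mice were 12 weeks old at the first operation, underwent 5/6 nephrectomy (5/6 Nx, ligation of most of the left kidney and removal of the right one) or a sham operation (Sham), and recovered for 2 weeks before the diets began. Sham mice and the nephrectomised group 5/6 Nx-HPi-Lp ate one diet, in which protein made up 2.5% and phosphorus 2%. Protein was raised to 18% at the same phosphorus for 5/6 Nx-HPi-Hp, and phosphorus was lowered to 0.3% at the low protein for 5/6 Nx-LPi-Lp. Below, the nephrectomised groups are called HPi-Lp, HPi-Hp and LPi-Lp. The diets lasted 4 weeks by the study's methods and 30 days by the labels. No Sham mice on the other diets were analysed here, so a comparison of Sham with HPi-Hp or LPi-Lp mice spans surgery and diet together.

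MMPs are zinc endopeptidases, most of them secreted as inactive precursors, that between them cleave collagens, elastin, proteoglycans and fibronectin. The 4 TIMPs bind the active site of MMPs, and Timp3 also inhibits ADAMTS proteases. ADAMTS enzymes trim procollagens and degrade large proteoglycans such as versican, whereas ADAMTS-like proteins carry the ancillary domains without a protease domain. In the artery wall these genes are known for the turnover of the elastic and collagenous matrix around smooth muscle cells, and elastin breakdown is a known companion of medial calcification.

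Of the 22 Mmp genes, 9 lie side by side on chromosome 9 of mm10 (7272514 to 7699585, 427 kb) in the order Mmp13, Mmp12, Mmp1b, Mmp3, Mmp10, Mmp8, Mmp27, Mmp20 and Mmp7. The promoters of Mmp13, Mmp3 and Mmp12 are shown because these 3 neighbours were each called higher in HPi-Lp mice against every other group. Each line gives the 250 bases before an annotated start, 5′ to 3′ on the plus strand, from RefSeq (GRCm38.p6), and the capitals mark the letters TGANTCA, the motif of the AP-1 transcription factors, which reads the same on both strands. The windows are chr9:7272264-7272513 for Mmp13, chr9:7445572-7445821 for Mmp3 and chr9:7347124-7347373 for Mmp12, at the more downstream of its annotated starts.
Mmp13: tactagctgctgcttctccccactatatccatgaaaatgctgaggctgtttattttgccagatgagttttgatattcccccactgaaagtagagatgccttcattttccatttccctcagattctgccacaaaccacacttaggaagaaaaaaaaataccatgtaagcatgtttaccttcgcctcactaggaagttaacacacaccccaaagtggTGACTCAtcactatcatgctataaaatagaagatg
Mmp3: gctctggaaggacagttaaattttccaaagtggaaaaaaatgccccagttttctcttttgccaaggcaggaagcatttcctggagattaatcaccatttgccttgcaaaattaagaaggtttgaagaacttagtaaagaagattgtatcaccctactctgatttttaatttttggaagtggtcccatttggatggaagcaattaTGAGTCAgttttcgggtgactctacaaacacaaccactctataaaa
Mmp12: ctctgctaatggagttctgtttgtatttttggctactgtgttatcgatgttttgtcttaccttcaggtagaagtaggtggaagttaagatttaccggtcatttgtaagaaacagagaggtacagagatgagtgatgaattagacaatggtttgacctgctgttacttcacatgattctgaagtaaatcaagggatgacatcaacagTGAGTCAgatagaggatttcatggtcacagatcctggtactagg
The other annotated start of Mmp12 had no match. The motif begins 35 bases before the start in Mmp13, 46 bases before it in Mmp3 and 44 bases before it in Mmp12. RefSeq promoters were matched for 35 of the 50 members. The motif was present in 7 of these 35, namely Mmp13, Mmp12, Mmp1b, Mmp3, Mmp10, Mmp20 and Mmp7, which are 7 of the 9 genes of the chromosome 9 cluster. None of the 26 matched members outside the cluster held it, Timp1 and Mmp14 among them. Counted per promoter, the motif was in 7 of the 38 promoters of members and in 6.75% of all 32851 promoters of the same length. A match is a run of letters and not a measured binding site. Of the 7 genes with the motif, 3 passed the count filter of the edgeR test, and the other 4 reached at most 12 counts in a library.

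In mm10, whose coordinates the deposited table uses, Timp1 spans 20870166 to 20874735 on chromosome X, Mmp2 spans 92827291 to 92853420 on chromosome 8 and Mmp14 spans 54431612 to 54445364 on chromosome 14. Mmp13 spans 7272514 to 7283331, Mmp12 spans 7344381 to 7369499 and Mmp3 spans 7445822 to 7455975 on chromosome 9. Mmp19 lies on chromosome 10 (128790910 to 128800824), Adamts4 on chromosome 1 (171250421 to 171260637), Adamts12 on chromosome 15 (11064790 to 11349231) and Adamts8 on chromosome 9 (30942562 to 30963838). Values of each gene are sums over its exons.

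Levels are given as deposited FPKM (reads per kilobase of exon, scaled between libraries), which allow comparison between genes per length. Differences were tested on counts with edgeR's quasi-likelihood test in fits of 8 libraries, adjusted by Benjamini-Hochberg over all genes tested. Calls needed an adjusted p no larger than 0.05 and a log2 fold change of 1 or more in size. The 4 HPi-Lp libraries enter 3 comparisons, which are therefore not independent, and the same holds for the 4 Sham libraries. Library totals ranged from 13659525 to 57276915 counts, and HPi-Lp replicate 2 was the largest. Mitochondrially encoded genes took 4.18 to 6.34% of counts in Sham and 9.50 to 29.0% in the other groups. The labelled tissue carried all 6 smooth muscle markers listed (Myh11, Acta2, Tagln, Cnn1, Smtn and Lmod1), whose summed level was 21666 to 25737 CPM (counts scaled to library size) in Sham. It was 2223 to 5034 in HPi-Lp, 6540.5 to 23205 in HPi-Hp and 7597 to 17667 in LPi-Lp mice.

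In the aorta of HPi-Lp mice most called members were higher, Mmp2, Mmp3, Mmp12, Mmp13, Mmp14 and Timp1 among them. Against Sham, 16 of 38 tested members were upregulated (15% of all 16513 genes were) and 4 were downregulated (7.18%), which is 52.6% of the members called against 22.2% of all genes. In the same comparison 14 members lay above and 8 below Sham without overlap, and 41.8% of all genes did not overlap (21.4% higher and 20.4% lower). Against HPi-Hp, 10 of 38 were upregulated (5.01% of all genes) and 4 downregulated (3.11%), in all 36.8% against 8.12%, and 16 did not overlap (20.6% of all genes). Against LPi-Lp, 14 of 39 were upregulated (7.9% of all genes) and 3 downregulated (3.98%), in all 43.6% against 11.9%, and 17 did not overlap (24.6% of all genes). The members' median log2 fold change was 0.55, 0.54 and 0.51 in these comparisons, and that of all genes was 0.00, 0.01 and -0.02. Without HPi-Lp replicate 2, the library with the highest levels of most of the upregulated members, 18, 11 and 13 members were called. Over all genes the same fits called 3838, 906 and 1698, against 3666, 1315 and 1931 with all libraries. In bulk tissue, fewer cells of a type and less RNA per cell cannot be told apart.

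**Figure D1:**
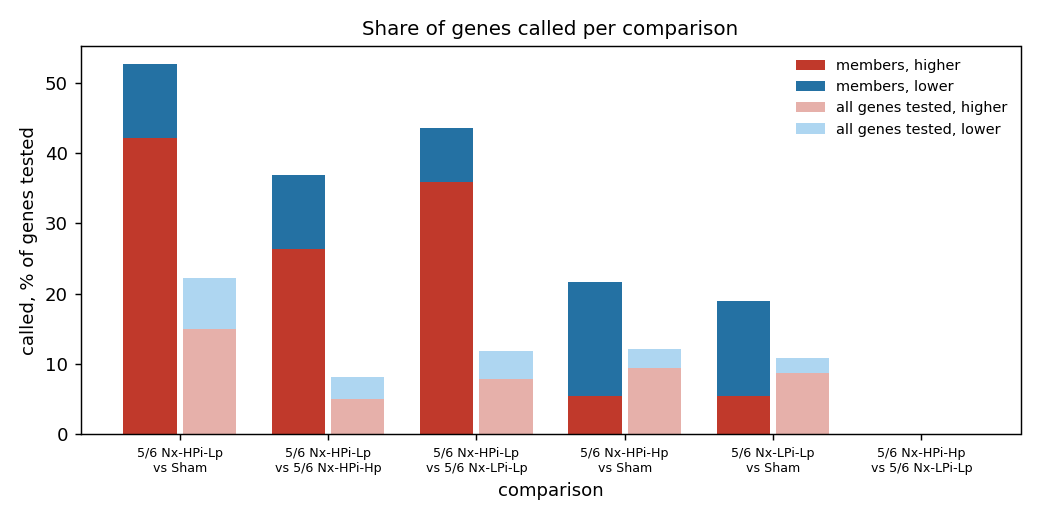
Percentage of tested genes that were called in each of the 6 comparisons, for the MMP, TIMP and ADAMTS members (dark bars) and for all genes tested (light bars). Genes higher in the first-named group are red, at the base, and lower ones blue, above them. The members reached 52.6%, 36.8% and 43.6% in the comparisons of HPi-Lp mice, against 22.2%, 8.12% and 11.9% of all genes, and no bar stands for HPi-Hp against LPi-Lp mice.

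Upregulated against all 3 groups were 9 members: Mmp2, Mmp3, Mmp12, Mmp13, Mmp14, Mmp19, Timp1, Adamts4 and Adamts12. Of all genes tested in the 3 comparisons, 3.96% were upregulated in each. Adamts8 was the only member downregulated against all 3 groups, where 1.57% of all genes were. Among the 9 upregulated members, HPi-Lp replicate 2 had the highest FPKM of its group in 8 and replicate 1 the lowest in 8.

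**Figure D2:**
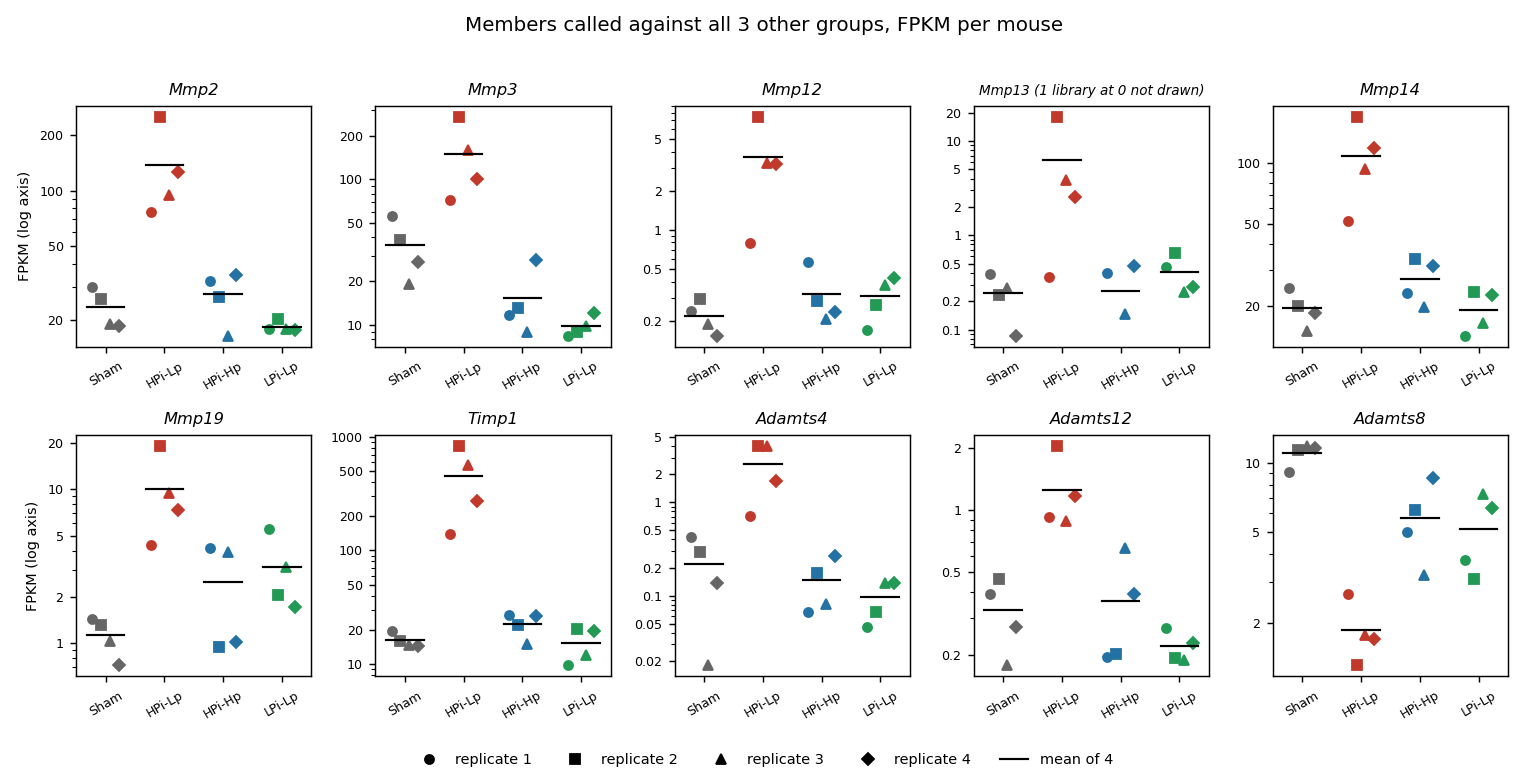
FPKM (log axis) of the 10 members called against all 3 other groups, 1 point per mouse and a line at the mean of 4. Apart from Mmp13, where 1 library at 0 is not drawn, and Mmp19, every HPi-Lp mouse lies above all others in the upregulated members and below all others in Adamts8.

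The gelatinases Mmp2 and Mmp9 cleave denatured collagen and the type IV collagen of basement membranes. Mmp2 FPKM was 30.0, 25.9, 18.9 and 18.4 in Sham, 76.1, 251, 94.9 and 127 in HPi-Lp, 32.2, 26.5, 16.4 and 34.7 in HPi-Hp and 17.7, 20.2, 17.7 and 17.7 in LPi-Lp mice. Every HPi-Lp mouse exceeded all 12 others. The log2 fold change of Mmp2 was 2.52 ± 0.36 (SE) against Sham (adjusted p = 0.000482 by edgeR), 2.31 ± 0.39 against HPi-Hp (adjusted p = 0.0077 by edgeR) and 2.91 ± 0.36 against LPi-Lp mice (adjusted p = 0.00184 by edgeR). Mmp9, which neutrophils and osteoclasts also make, had 1.09, 1.28, 0.961 and 1.22 FPKM in Sham, 2.50, 12.2, 4.54 and 2.71 in HPi-Lp, 2.76, 2.90, 2.05 and 2.19 in HPi-Hp and 1.19, 1.03, 0.520 and 1.33 in LPi-Lp mice. Both high-phosphate 5/6 Nx groups thus lay above Sham without overlap, and the LPi-Lp mice did not. Mmp9 was upregulated against Sham in HPi-Lp (2.24 ± 0.47 on the log2 scale, adjusted p = 0.00418 by edgeR) and in HPi-Hp mice (1.11 ± 0.20, adjusted p = 0.00948 by edgeR), and in HPi-Lp against LPi-Lp mice (2.43 ± 0.54, adjusted p = 0.0155 by edgeR). Between the HPi-Lp and HPi-Hp mice its log2 difference was 1.15 ± 0.46 (adjusted p = 0.127 by edgeR). Without HPi-Lp replicate 2, the log2 fold change of Mmp9 was 1.51 against Sham and 1.67 against LPi-Lp mice, both still called.

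Among the stromelysins, Mmp3 degrades proteoglycans and fibronectin and activates other pro-MMPs. Its FPKM was 56.4, 38.6, 19.0 and 27.2 in Sham, 71.9, 269.8, 158 and 101 in HPi-Lp, 11.7, 13.1, 8.96 and 28.1 in HPi-Hp and 8.46, 8.99, 9.90 and 12.2 in LPi-Lp mice. The order of the group means was HPi-Lp, Sham, HPi-Hp and LPi-Lp, and Mmp3 was the only member called both higher in HPi-Lp mice and lower in both other 5/6 Nx groups relative to Sham. The log2 fold change was 2.05 ± 0.44 against Sham (adjusted p = 0.00448 by edgeR), 3.26 ± 0.49 against HPi-Hp (adjusted p = 0.00506 by edgeR) and 3.93 ± 0.41 against LPi-Lp mice (adjusted p = 0.00101 by edgeR). Relative to Sham it was -1.82 ± 0.30 in LPi-Lp mice (adjusted p = 0.00357 by edgeR), with no overlap. In HPi-Hp mice it was -1.19 ± 0.40 (adjusted p = 0.0456 by edgeR), where 1 mouse at 28.1 FPKM overlapped Sham. That last call was lost without Sham replicate 1, 2 or 4 and without HPi-Hp replicate 1, 2 or 3 (adjusted p of 0.0579 to 0.118 by edgeR). Mmp11, the stromelysin of stromal cells, was not called in any comparison by edgeR. Mmp10 reached at most 12 counts in a library and did not pass the count filter.

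Mmp13, the main interstitial collagenase of the mouse and a gene of bone and cartilage, was low outside HPi-Lp mice. Its FPKM was 0.385, 0.235, 0.274 and 0.0859 in Sham, 0.363, 18.2, 3.83 and 2.54 in HPi-Lp, 0.400, 0, 0.146 and 0.477 in HPi-Hp and 0.458, 0.644, 0.248 and 0.282 in LPi-Lp mice. Thus 3 of the 4 HPi-Lp mice lay above every other mouse, and replicate 1 lay within the range of all 3 other groups. Mmp13 was upregulated by a log2 fold change of 4.63 ± 1.03 against Sham (adjusted p = 0.00536 by edgeR), 4.51 ± 1.14 against HPi-Hp (adjusted p = 0.0317 by edgeR) and 3.95 ± 1.00 against LPi-Lp mice (adjusted p = 0.0241 by edgeR). Without HPi-Lp replicate 2 these values were 3.19, 3.07 and 2.47, and the call against HPi-Hp was lost (adjusted p = 0.0822 by edgeR). That call was also lost without HPi-Lp replicate 3 or 4 or HPi-Hp replicate 1, 2 or 3, and the call of Mmp13 against LPi-Lp without replicate 1, 3 or 4 of that group (adjusted p of 0.0532 to 0.0822 by edgeR over these fits). Mmp8, the neutrophil collagenase, reached at most 89 counts in a library and did not pass the count filter. Without that filter edgeR called Mmp8 higher in HPi-Lp mice against Sham (adjusted p = 0.0444) and against LPi-Lp mice (adjusted p = 0.0374), as did DESeq2. HPi-Lp replicate 1 had 0 FPKM of Mmp8, and the libraries of Sham and LPi-Lp mice held at most 4 and 1 counts of it. Mmp1b had 0 counts.

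Mmp12, the metalloelastase of macrophages, cleaves elastin. Its FPKM was 0.239, 0.295, 0.190 and 0.153 in Sham, 0.795, 7.43, 3.25 and 3.20 in HPi-Lp, 0.568, 0.281, 0.205 and 0.235 in HPi-Hp and 0.169, 0.264, 0.377 and 0.429 in LPi-Lp mice. All 4 HPi-Lp mice were higher than the 12 others. Mmp12 rose 16.4-fold against Sham (log2 4.03 ± 0.59, adjusted p = 0.000537 by edgeR), 11.2-fold against HPi-Hp (log2 3.49 ± 0.62, adjusted p = 0.009 by edgeR) and 11.9-fold against LPi-Lp mice (log2 3.57 ± 0.62, adjusted p = 0.00572 by edgeR). Without HPi-Lp replicate 2 the log2 values against these last 2 groups were 2.90 and 2.95, still called. Matrilysin, Mmp7, reached at most 2 counts in a library.

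Markers of some other cell types also differed between the groups. All 8 macrophage markers listed (Adgre1, Cd68, Csf1r, Mrc1, C1qa, C1qb, C1qc and Fcgr1) were upregulated in HPi-Lp mice against Sham, and their summed level was 167 to 229 CPM in Sham, 456 to 1390.1 in HPi-Lp, 222 to 482 in HPi-Hp and 168 to 271 in LPi-Lp mice. The highest macrophage sum was that of HPi-Lp replicate 2. Of 8 neutrophil markers, 4 were upregulated among 5 tested, Ly6g had at most 3 counts in every library, and the sum was 1.502 to 8.86 CPM in Sham, 17.0 to 78.2 in HPi-Lp, 2.10 to 9.73 in HPi-Hp and 2.71 to 3.70 in LPi-Lp mice. Of 5 fibroblast markers (Pdgfra, Dpt, Lum, Dcn and Pi16), 2 were upregulated against Sham and 4 against each of the other groups, with sums of 995 to 1702, 1305 to 3007, 679 to 1230.0 and 612 to 1166 CPM in the same order of groups. Of 5 osteoclast markers, 2 were tested against Sham and both were upregulated, with sums of 9.63 to 21.2, 67.6 to 143, 23.7 to 149.8 and 38.6 to 90.0 CPM, and Calcr and Dcstamp had at most 3 counts in every Sham library. Sums of adipocyte markers in Sham, HPi-Lp, HPi-Hp and LPi-Lp mice were 192 to 521, 2271 to 7412, 603 to 6526 and 775 to 2154 CPM. Those of mast cell markers were 20.5 to 45.6, 148 to 174, 70.9 to 399 and 54.3 to 182 CPM, so that all 3 5/6 Nx groups lay above Sham in both lists. Sympathetic neuron markers summed to 2.29 to 4.01, 17.8 to 1084, 5.10 to 131 and 1.57 to 88.4 CPM in the same order of groups. Within the HPi-Lp group that sum was highest in replicate 1 (1084 CPM) and lowest in replicate 2 (17.8 CPM), unlike most of the upregulated members. Pancreatic acinar markers summed to 4.90 to 6.91, 13.9 to 122, 3.60 to 8.53 and 12.5 to 23.5 CPM, and those of lung epithelium to 0.767 to 1.49, 6.69 to 66.3, 0.484 to 2.41 and 0.650 to 1.63 CPM. Like the fibroblast sums above, those of the following lists overlapped between Sham and HPi-Lp mice. Endothelial markers had 505 to 729 and 509 to 719 CPM, and chondrocyte markers 15.9 to 24.4 and 17.3 to 44.1 CPM. Lymphocyte markers had 4.24 to 13.7 and 5.63 to 21.1 CPM, and Schwann cell markers 37.5 to 43.4 and 35.2 to 457 CPM. The part of these cell types in the results on the proteases was not tested.

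**Figure D3:**
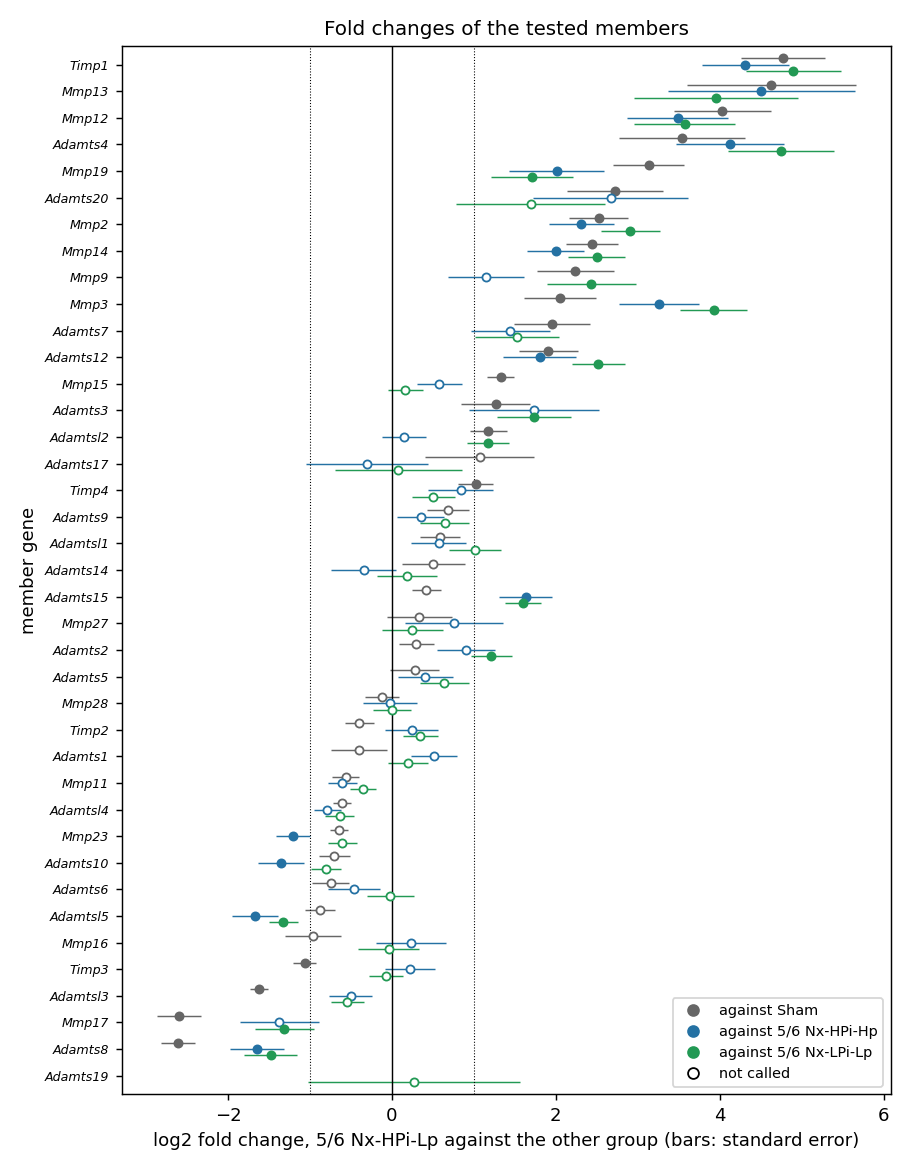
Log2 fold change (x axis) with its standard error of each of the 39 tested members in HPi-Lp mice against Sham (grey), HPi-Hp (blue) and LPi-Lp mice (green); filled points were called and dotted lines mark a log2 fold change of 1 in size. Timp1 stands at the top with 4.77, 4.31 and 4.90, and Adamts8 and Mmp17 are lowest against Sham with -2.61 and -2.60.

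Membrane-anchored MMPs were called in both directions. Mmp14, which cleaves collagen at the cell surface and activates pro-Mmp2, had 24.4, 19.8, 15.1 and 18.4 FPKM in Sham, 51.7, 169, 93.2 and 118 in HPi-Lp, 23.0, 33.7, 19.6 and 31.4 in HPi-Hp and 14.2, 23.3, 16.4 and 22.6 in LPi-Lp mice. No HPi-Lp mouse overlapped another group. Mmp14 was upregulated, with a log2 fold change of 2.44 ± 0.32 against Sham (adjusted p = 0.000304 by edgeR), 2.00 ± 0.35 against HPi-Hp (adjusted p = 0.00856 by edgeR) and 2.50 ± 0.35 against LPi-Lp mice (adjusted p = 0.00274 by edgeR). Mmp15, a close relative, had 1.505, 1.51, 1.79 and 1.86 FPKM in Sham, 4.19, 3.397, 4.08 and 5.40 in HPi-Lp, 2.82, 1.53, 3.58 and 3.45 in HPi-Hp and 3.97, 4.81, 3.90 and 2.51 in LPi-Lp mice. It was upregulated against Sham in HPi-Lp (1.33 ± 0.17, adjusted p = 0.000249 by edgeR) and LPi-Lp mice (1.201 ± 0.19, adjusted p = 0.00345 by edgeR), both without overlap, and had a log2 difference of 0.77 ± 0.25 in HPi-Hp mice (adjusted p = 0.0413 by edgeR), under the fold threshold.

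Mmp17, an MMP held at the cell surface by a lipid anchor and known in vascular smooth muscle, was lower in the 5/6 Nx mice. Its FPKM was 28.8, 30.4, 26.8 and 25.6 in Sham, 7.25, 3.23, 5.38 and 2.99 in HPi-Lp, 10.2, 8.55, 4.83 and 24.8 in HPi-Hp and 6.999, 8.26, 14.7 and 16.5 in LPi-Lp mice. All 12 5/6 Nx mice were below all 4 Sham mice, and HPi-Hp replicate 4 came closest to them. The log2 fold change against Sham was -2.60 ± 0.27 in HPi-Lp (adjusted p = 8.98e-05 by edgeR), -1.21 ± 0.41 in HPi-Hp (adjusted p = 0.0462 by edgeR) and -1.25 ± 0.26 in LPi-Lp mice (adjusted p = 0.00721 by edgeR). The middle one of these was -1.83 without HPi-Hp replicate 4 and lost its call without any other 1 of the 8 libraries (adjusted p of 0.0712 to 0.115 by edgeR). From LPi-Lp to HPi-Lp mice Mmp17 differed by -1.31 ± 0.36 on the log2 scale (adjusted p = 0.0313 by edgeR), a call lost without HPi-Lp replicate 2, 3 or 4 or LPi-Lp replicate 3 or 4 (adjusted p of 0.054 to 0.0928 by edgeR). Against HPi-Hp mice it was -1.38 ± 0.48 (adjusted p = 0.0864 by edgeR).

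Mmp16 was 0.678, 0.868, 0.819 and 0.680 FPKM in Sham, 0.664, 0.200, 0.357 and 0.389 in HPi-Lp, 0.333, 0.274, 0.288 and 0.459 in HPi-Hp and 0.379, 0.471, 0.399 and 0.385 in LPi-Lp mice. All Sham mice lay above the 12 others, and HPi-Lp replicate 1 came closest to them. Only the HPi-Hp mice passed both thresholds (-1.16 ± 0.24, adjusted p = 0.0105 by edgeR), and the log2 differences of -0.96 in HPi-Lp and -0.88 in LPi-Lp mice had adjusted p of 0.0443 and 0.00651 by edgeR. Mmp23, which has an unusual membrane anchor at its amino end, was 50.01 ± 6.78 FPKM (SD, n = 4) in HPi-Lp and 115 ± 31.2 in HPi-Hp mice, and this difference was called (-1.21 ± 0.21, adjusted p = 0.00784 by edgeR). It had 76.5 ± 4.30 FPKM in Sham and 75.9 ± 15.8 in LPi-Lp mice. Mmp24 and Mmp25 reached at most 92 and 93 counts in a library and did not pass the count filter.

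Among the remaining MMPs, Mmp19, which acts on basement membrane proteins, had 1.43, 1.31, 1.04 and 0.715 FPKM in Sham, 4.32, 19.1, 9.48 and 7.31 in HPi-Lp, 4.13, 0.937, 3.91 and 1.01 in HPi-Hp and 5.56, 2.06, 3.11 and 1.70 in LPi-Lp mice. The HPi-Lp mice lay above Sham and HPi-Hp mice, while 1 LPi-Lp mouse overlapped them. Mmp19 was upregulated by a log2 fold change of 3.13 ± 0.43 against Sham (adjusted p = 0.000409 by edgeR), 2.01 ± 0.58 against HPi-Hp (adjusted p = 0.0473 by edgeR) and 1.71 ± 0.50 against LPi-Lp mice (adjusted p = 0.0384 by edgeR). These last calls were sensitive to single libraries, since the first of them was lost without any library but HPi-Lp replicate 1 (adjusted p of 0.0525 to 0.116 by edgeR). The other was lost without any library but replicate 1 of either group (adjusted p of 0.0601 to 0.0887 by edgeR for Mmp19). Mmp19 was also upregulated in LPi-Lp mice against Sham (1.47 ± 0.37, adjusted p = 0.0154 by edgeR). Mmp27 and Mmp28 were not called in any comparison by edgeR, and Mmp20 and Mmp21 reached at most 5 counts in a library.

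Of the 4 TIMP genes, 1 rose strongly, 1 rose slightly and 1 fell in HPi-Lp mice against Sham. Timp2, which inhibits MMPs and also takes part in the activation of pro-Mmp2 by Mmp14, had the highest group mean of all members in Sham, HPi-Hp and LPi-Lp mice (209, 136 and 128 FPKM), followed there by Adamts10. In HPi-Lp mice Timp1 (453 FPKM) stood above Timp2 (163 FPKM). Timp1 FPKM was 19.6, 15.96, 14.7 and 14.5 in Sham, 139, 831, 567 and 276 in HPi-Lp, 26.9, 22.1, 15.1 and 26.4 in HPi-Hp and 9.71, 20.1, 11.9 and 19.3 in LPi-Lp mice. The lowest HPi-Lp mouse was far above the highest of the 12 others. Timp1 rose 27.3-fold against Sham (log2 4.77 ± 0.51, adjusted p = 0.00011 by edgeR), 19.9-fold against HPi-Hp (log2 4.31 ± 0.53, adjusted p = 0.00315 by edgeR) and 29.8-fold against LPi-Lp mice (log2 4.90 ± 0.58, adjusted p = 0.00159 by edgeR), the largest log2 fold change of the tested members against Sham and against LPi-Lp mice. Relative to Sham its log2 difference was 0.48 ± 0.20 in HPi-Hp and -0.07 ± 0.24 in LPi-Lp mice (adjusted p of 0.0889 and 0.86 by edgeR).

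Timp2 FPKM was 226, 223, 204 and 183 in Sham, 139.6, 228, 137 and 147 in HPi-Lp, 148, 111, 76.0 and 211 in HPi-Hp and 102, 125, 138 and 147 in LPi-Lp mice. It was not called in any comparison by edgeR, and its log2 fold change in HPi-Lp mice was -0.40 ± 0.17 against Sham, 0.24 ± 0.32 against HPi-Hp and 0.34 ± 0.21 against LPi-Lp mice. Timp3, which is bound to the matrix and also inhibits ADAMTS proteases, had 33.1, 40.9, 40.6 and 31.7 FPKM in Sham, 19.5, 15.5, 20.6 and 15.8 in HPi-Lp, 14.9, 10, 10.2 and 25.8 in HPi-Hp and 15.9, 13.0, 23.8 and 22.2 in LPi-Lp mice. Every Sham mouse was above every 5/6 Nx mouse. Timp3 fell against Sham in HPi-Lp (-1.06 ± 0.14, adjusted p = 0.000301 by edgeR) and HPi-Hp mice (-1.27 ± 0.30, adjusted p = 0.0143 by edgeR), and in LPi-Lp mice the log2 difference of -0.95 ± 0.20 (adjusted p = 0.00752 by edgeR) was under the fold threshold. Without HPi-Lp replicate 2 or 4 the first of these was -0.985 or -0.997 and fell under that threshold too. Timp4 had 4.80, 6.40, 5.97 and 6.16 FPKM in Sham, 14.4, 7.01, 12.6 and 14.3 in HPi-Lp, 8.49, 2.95, 11.5 and 4.15 in HPi-Hp and 10.8, 7.13, 10.1 and 5.89 in LPi-Lp mice. Timp4 was called against Sham in HPi-Lp mice at 1.02 ± 0.22 (adjusted p = 0.00436 by edgeR), and without Sham replicate 1 or HPi-Lp replicate 1 or 4 the log2 value was 0.92 to 0.94, under the threshold.

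**Figure D4:**
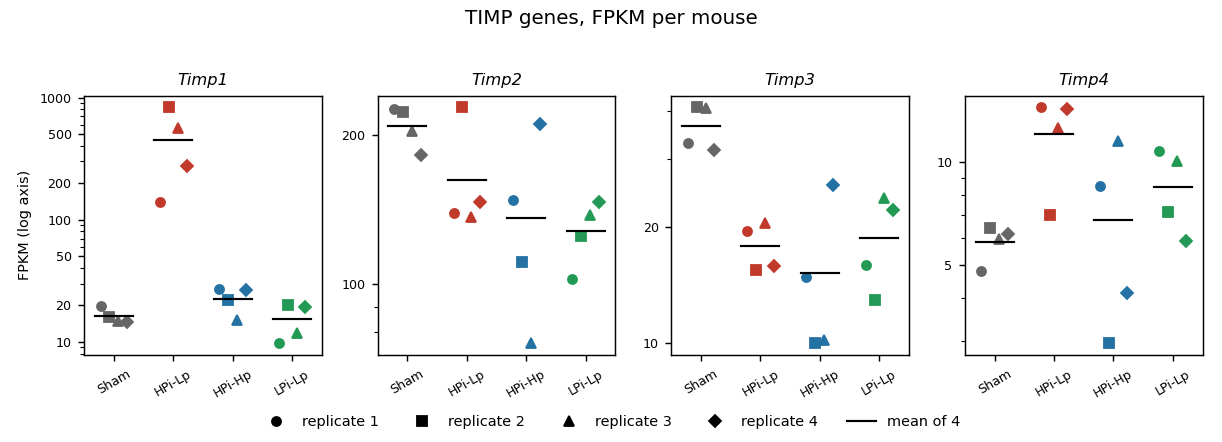
FPKM (log axis) of the 4 TIMP genes, 1 point per mouse and a line at the mean of 4. The HPi-Lp mice stand apart in Timp1 (139 to 831 FPKM), whereas in Timp3 all 12 5/6 Nx mice lie below the 4 Sham mice.

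Added together, the 4 TIMP genes reached 268 ± 23.7 FPKM (SD, n = 4) in Sham and 646 ± 339.8 in HPi-Lp mice, and 181 ± 67.3 and 171 ± 24.2 in HPi-Hp and LPi-Lp mice. The 22 Mmp genes together reached 202 ± 24.0, 493 ± 233, 221 ± 41.0 and 157 ± 21.8 FPKM in the same order. The 19 Adamts genes reached 162 ± 8.66, 133 ± 16.6, 183 ± 49.7 and 139.6 ± 6.50, and the 5 Adamtsl genes 86.3 ± 10.2, 51.1 ± 8.67, 132 ± 38.9 and 106 ± 8.71. The sums of Mmp and Timp genes were thus highest, and those of Adamts and Adamtsl genes lowest, on average in the HPi-Lp mice. These sums were not tested and are set by the few most abundant members.

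The proteoglycan-degrading ADAMTS enzymes were called in both directions as well. Adamts4, an aggrecanase, had 0.420, 0.295, 0.0179 and 0.135 FPKM in Sham, 0.713, 3.98, 4.00 and 1.71 in HPi-Lp, 0.0666, 0.176, 0.0811 and 0.265 in HPi-Hp and 0.0462, 0.0663, 0.138 and 0.137 in LPi-Lp mice. The HPi-Lp mice lay above all others, which overlapped one another and held 2 to 55 counts of it per library. Adamts4 was upregulated by a log2 fold change of 3.54 ± 0.77 against Sham (adjusted p = 0.00474 by edgeR), 4.12 ± 0.66 against HPi-Hp (adjusted p = 0.00617 by edgeR) and 4.74 ± 0.65 against LPi-Lp mice (adjusted p = 0.00251 by edgeR). Adamts20 was upregulated against Sham (2.72 ± 0.59, adjusted p = 0.00459 by edgeR) at low levels of 0.0307 ± 0.0134 FPKM (SD, n = 4) in Sham and 0.210 ± 0.118 in HPi-Lp mice. Its counts per library were 4 to 12 in Sham and 9 to 112 in HPi-Lp mice. Adamts20 did not pass the count filter in comparisons without HPi-Lp mice. Adamts1, Adamts5 and Adamts9 were not called in any comparison by edgeR.

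Adamts8 and Adamts15 are neighbours on chromosome 9, with 20109 bases between them. Adamts8 had 9.15, 11.4, 11.8 and 11.6 FPKM in Sham, 2.66, 1.30, 1.76 and 1.70 in HPi-Lp, 4.95, 6.22, 3.23 and 8.58 in HPi-Hp and 3.76, 3.10, 7.31 and 6.35 in LPi-Lp mice. All HPi-Lp mice lay below the 12 others, and all other 5/6 Nx mice lay below Sham. The log2 fold change of Adamts8 in HPi-Lp mice was -2.61 ± 0.21 against Sham (adjusted p = 3.12e-05 by edgeR), -1.64 ± 0.33 against HPi-Hp (adjusted p = 0.0137 by edgeR) and -1.48 ± 0.32 against LPi-Lp mice (adjusted p = 0.0134 by edgeR). Against Sham it was -0.94 ± 0.25 in HPi-Hp (adjusted p = 0.0216 by edgeR, under the fold threshold) and -1.08 ± 0.25 in LPi-Lp mice (adjusted p = 0.0113 by edgeR). That last value was -0.95 and -0.91 without LPi-Lp replicate 1 or 2.

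Adamts15, another versican- and aggrecan-degrading enzyme, had 10.9, 9.17, 7.92 and 9.13 FPKM in Sham, 9.52, 17.0, 13.7 and 10.6 in HPi-Lp, 4.17, 2.47, 3.03 and 6.61 in HPi-Hp and 3.89, 3.20, 5.16 and 4.52 in LPi-Lp mice. The Sham and HPi-Lp mice overlapped, and both lay above the other groups. Adamts15 fell against Sham in HPi-Hp (-1.19 ± 0.28, adjusted p = 0.0143 by edgeR) and LPi-Lp mice (-1.13 ± 0.16, adjusted p = 0.00311 by edgeR), while its log2 difference in HPi-Lp mice was 0.42 ± 0.18 (adjusted p = 0.086 by edgeR). Against the other 5/6 Nx groups it was upregulated in HPi-Lp mice, by 1.63 ± 0.32 and 1.60 ± 0.22 on the log2 scale (adjusted p of 0.0131 and 0.00266 by edgeR).

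Adamts12 and Adamts7 cleave cartilage oligomeric matrix protein (COMP). Adamts12 had 0.394, 0.467, 0.177 and 0.273 FPKM in Sham, 0.930, 2.05, 0.887 and 1.17 in HPi-Lp, 0.196, 0.202, 0.657 and 0.394 in HPi-Hp and 0.270, 0.193, 0.189 and 0.228 in LPi-Lp mice. The HPi-Lp mice lay above all others. Adamts12 was upregulated by a log2 fold change of 1.91 ± 0.36 against Sham (adjusted p = 0.00232 by edgeR), 1.80 ± 0.44 against HPi-Hp (adjusted p = 0.0278 by edgeR) and 2.52 ± 0.32 against LPi-Lp mice (adjusted p = 0.00208 by edgeR). The middle call was lost without HPi-Lp replicate 2 or 4 or HPi-Hp replicate 1 or 2 (adjusted p of 0.0626 to 0.0793 by edgeR). Adamts7 was upregulated against Sham (1.96 ± 0.46, adjusted p = 0.00716 by edgeR), and its log2 difference was 1.44 ± 0.48 and 1.52 ± 0.51 against the other groups (adjusted p of 0.0742 and 0.0628 by edgeR).

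The procollagen N-proteinases remove the amino propeptide of fibrillar procollagens. Adamts2, the most abundant of them, was 23.6 ± 7.99 FPKM (SD, n = 4) in HPi-Lp, 18.7 ± 2.59 in Sham, 12.5 ± 6.00 in HPi-Hp and 10.2 ± 2.11 in LPi-Lp mice. It was called against LPi-Lp mice (1.22 ± 0.25, adjusted p = 0.012 by edgeR), and at 0.95 without HPi-Lp replicate 2 it fell under the fold threshold. Adamts3 was called against Sham (1.27 ± 0.42, adjusted p = 0.0343 by edgeR) and against LPi-Lp mice (1.74 ± 0.45, adjusted p = 0.0268 by edgeR), at levels of at most 0.590 FPKM in a mouse. The first of these calls was lost without Sham replicate 1, 2 or 4 or HPi-Lp replicate 2 or 4, and the second without HPi-Lp replicate 2 or 4 or LPi-Lp replicate 2, 3 or 4 (adjusted p of 0.051 to 0.103 by edgeR for Adamts3). Adamts14 was not called in any comparison by edgeR.

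Adamts10, a fibrillin-binding ADAMTS, was 50.6 ± 12.9 FPKM (SD, n = 4) in HPi-Lp, 80.7 ± 12.9 in Sham, 129 ± 46.1 in HPi-Hp and 88.2 ± 7.70 in LPi-Lp mice. Its log2 fold change was -1.35 ± 0.28 against HPi-Hp mice (adjusted p = 0.0149 by edgeR), and the call was lost without HPi-Lp replicate 4 (-1.28, adjusted p = 0.0559 by edgeR). The differences of Adamts10 from Sham (-0.70) and LPi-Lp mice (-0.81) were under the fold threshold. Adamtsl5, a fibrillin-binding ADAMTS-like protein, was 33.0 ± 7.82 FPKM in HPi-Lp, 59.3 ± 10.3 in Sham, 105 ± 38.0 in HPi-Hp and 82.4 ± 5.40 in LPi-Lp mice, each group above the HPi-Lp mice without overlap. It was downregulated against HPi-Hp (-1.67 ± 0.28, adjusted p = 0.00745 by edgeR) and LPi-Lp mice (-1.32 ± 0.18, adjusted p = 0.0023 by edgeR) and differed from Sham by -0.88 ± 0.19. Adamts6, Adamts17, Adamts19, Adamtsl1 and Adamtsl4 were not called in any comparison by edgeR.

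Adamtsl3, a matrix protein of the ADAMTS-like group, had 8.55, 8.56, 8.17 and 7.29 FPKM in Sham, 2.85, 2.84, 2.82 and 2.27 in HPi-Lp, 4.51, 3.16, 2.19 and 5.35 in HPi-Hp and 3.45, 2.69, 4.77 and 4.81 in LPi-Lp mice. Every Sham mouse was above every 5/6 Nx mouse. The log2 fold change of Adamtsl3 against Sham was -1.62 ± 0.11 in HPi-Lp (adjusted p = 1.49e-05 by edgeR), -1.10 ± 0.24 in HPi-Hp (adjusted p = 0.0125 by edgeR) and -1.04 ± 0.18 in LPi-Lp mice (adjusted p = 0.00385 by edgeR). Without HPi-Hp replicate 3 the second was -0.91, and without LPi-Lp replicate 1 or 2 the third was -0.97 or -0.90, all under the fold threshold. Adamtsl2, which binds fibrillin and a latent TGF-beta binding protein, had 1.34, 1.66, 1.18 and 1.46 FPKM in Sham, 3.92, 1.98, 4.08 and 3.05 in HPi-Lp, 1.84, 3.47, 3.24 and 3.24 in HPi-Hp and 1.503, 1.90, 1.28 and 1.07 in LPi-Lp mice. Like Mmp9, it lay above Sham without overlap in both 5/6 Nx groups on 2% phosphorus. Adamtsl2 was upregulated against Sham in HPi-Lp (1.18 ± 0.23, adjusted p = 0.00254 by edgeR) and HPi-Hp mice (1.05 ± 0.20, adjusted p = 0.00977 by edgeR), and in HPi-Lp against LPi-Lp mice (1.18 ± 0.26, adjusted p = 0.0139 by edgeR). Its call in HPi-Hp mice fell to 0.972 to 0.999 on the log2 scale, under the threshold, without Sham replicate 3 or HPi-Hp replicate 2, 3 or 4.

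**Figure D5:**
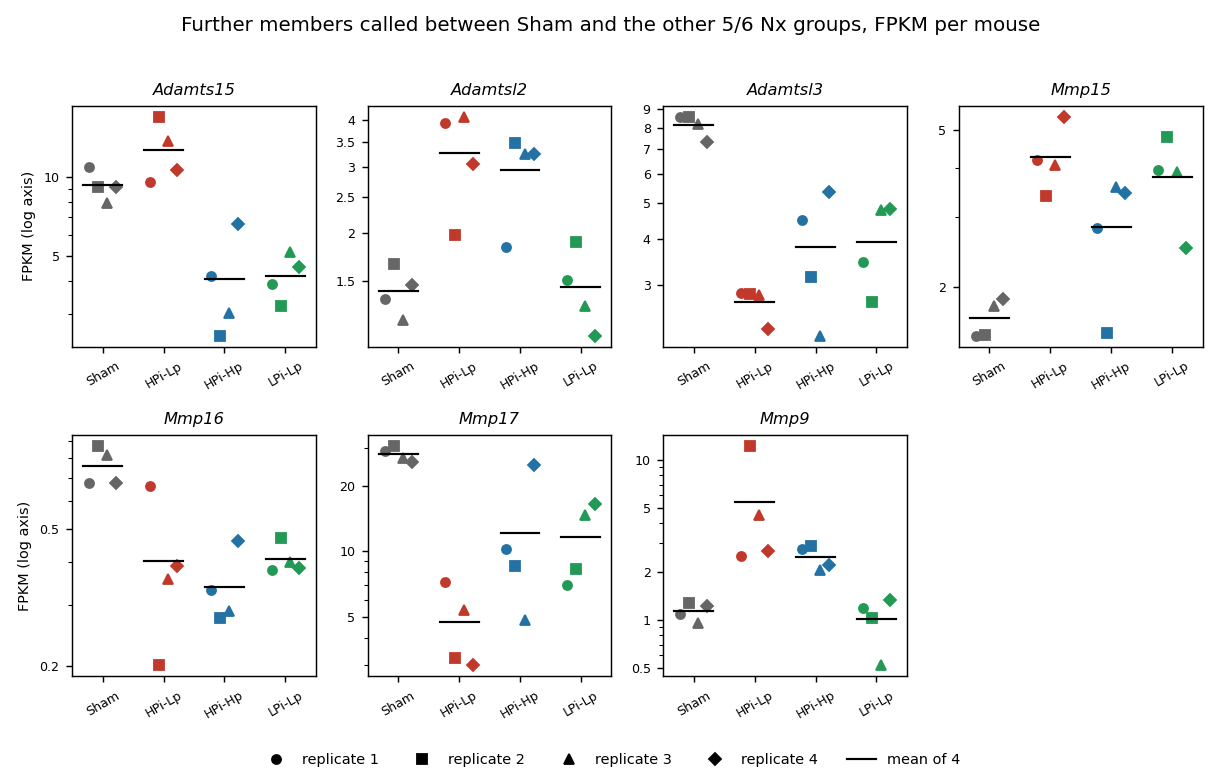
FPKM (log axis) of the 7 further members called between Sham and the HPi-Hp or LPi-Lp mice, 1 point per mouse and a line at the mean of 4. In Mmp16, Mmp17 and Adamtsl3 all 12 5/6 Nx mice lie below the Sham mice. In Mmp9 and Adamtsl2 both 5/6 Nx groups on 2% phosphorus lie above the Sham mice, which ate 2% phosphorus as well.

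In the other 5/6 Nx groups fewer members were called, and most of those were lower than in Sham. Relative to Sham, 2 of 37 members were upregulated and 6 downregulated in HPi-Hp mice (21.6%, against 12.2% of all genes), where 9 did not overlap (33.4% of all genes). In LPi-Lp mice 2 were upregulated and 5 downregulated (18.9%, against 10.9%), and 12 did not overlap (34.0% of all genes). Among all genes called in these comparisons most were higher, with 9.41% upregulated and 2.75% downregulated in the first and 8.79% and 2.08% in the second. The downregulated members were Mmp3, Mmp16, Mmp17, Timp3, Adamts15 and Adamtsl3 in HPi-Hp mice and Mmp3, Mmp17, Adamts8, Adamts15 and Adamtsl3 in LPi-Lp mice. Mmp17 and Adamtsl3 were downregulated in all 3 5/6 Nx groups, as 0.942% of all genes were, and no member was upregulated in all 3 (3.79% of all genes). The count in HPi-Hp mice was 5 without replicate 2 and 4 without replicate 3 of that group. Over all genes these fits called 1557 and 1426, against 1932 with all libraries. Of the 6 smooth muscle markers, 1 was downregulated in each of these groups against Sham (Lmod1 in HPi-Hp and Acta2 in LPi-Lp mice), as against all 6 in HPi-Lp mice, and the part of smooth muscle content in the downregulated members was not tested.

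Between the HPi-Hp and LPi-Lp mice, 0 of 37 members were called by edgeR, as were 0 of all 15850 genes (0.0%), and 2 did not overlap, Mmp9 and Mmp11 (4.93% of all genes). Of the members, 5 (13.5%, against 8.96% of all genes) had an unadjusted p under 0.05 (Mmp2, Mmp9, Mmp23, Adamts14 and Adamtsl2). DESeq2 called 2 members, Mmp9 and Adamtsl2, both higher in HPi-Hp mice, among 79 of all genes (0.472%), and limma on log2(FPKM + 1) called 0. In edgeR the log2 difference was 1.26 ± 0.30 for Mmp9 and 1.02 ± 0.24 for Adamtsl2, each with an adjusted p of 0.492.

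Genes that activate, oppose or accompany these proteases were read from 4 lists. Of 13 tested activators and cell-surface regulators, 3 were upregulated in HPi-Lp mice against Sham (15% of all genes) and 2 were downregulated (7.18%). The protease trap alpha-2-macroglobulin, A2m, rose by 8.19 ± 0.59 on the log2 scale (adjusted p = 1.97e-05 by edgeR), the urokinase receptor Plaur by 1.68 ± 0.29 (adjusted p = 0.00132 by edgeR), while the membrane inhibitor Reck (-1.72 ± 0.18, adjusted p = 9.71e-05 by edgeR) and the protease inhibitor Serpine2 (-1.73 ± 0.16, adjusted p = 5.63e-05 by edgeR) fell. A2m did not pass the count filter in comparisons without HPi-Lp mice, so the size of its rise is imprecise. Against Sham, Serpine2 was also downregulated in HPi-Hp (-1.23 ± 0.42, adjusted p = 0.0474 by edgeR) and LPi-Lp mice (-1.17 ± 0.29, adjusted p = 0.0154 by edgeR). Reck was too in HPi-Hp mice (-1.19 ± 0.26, adjusted p = 0.0122 by edgeR), and its LPi-Lp value (-0.88) was under the fold threshold. Neither was called between HPi-Lp and the other 5/6 Nx mice. The convertase Furin, which cleaves the precursors of Mmp14 and many ADAMTS proteases, was not called. Against HPi-Hp and LPi-Lp mice, 2 and 3 of the list were upregulated (5.01% and 7.9% of all genes) and 0 downregulated (3.11% and 3.98%). Of 7 cathepsins and serine proteases of the matrix, 3 were upregulated against Sham (15% of all genes) and 1 downregulated (7.18%). Cathepsin S, Ctss, rose by 3.92 ± 0.42 (adjusted p = 0.000111 by edgeR), cathepsin K, Ctsk, the collagenase of osteoclasts, by 2.77 ± 0.38 (adjusted p = 0.000415 by edgeR) and the fibroblast protease Fap by 1.46 ± 0.32 (adjusted p = 0.00534 by edgeR), and Htra1 fell (-1.82 ± 0.13, adjusted p = 1.97e-05 by edgeR).

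Of 7 tested ADAM proteases, the membrane-bound relatives of the ADAMTS family, 2 were upregulated against Sham (15% of all genes). They were Adam12, by 3.76 ± 0.55 (adjusted p = 0.000533 by edgeR), and Adam8, by 3.66 ± 0.43 (adjusted p = 0.000162 by edgeR). Adam12 was also upregulated against Sham in HPi-Hp (1.63 ± 0.43, adjusted p = 0.0201 by edgeR) and LPi-Lp mice (2.45 ± 0.37, adjusted p = 0.00344 by edgeR). Between HPi-Lp and LPi-Lp mice Adam12 was not called (adjusted p = 0.108 by edgeR). In the comparisons of HPi-Lp with HPi-Hp and LPi-Lp mice, 4 and 2 of the 7 were upregulated (5.01% and 7.9% of all genes), Adam8 among both. Of 9 proteoglycan and glycoprotein substrates, 3 were upregulated in HPi-Lp mice against Sham (15% of all genes). These were the brain proteoglycan Bcan (3.65 ± 0.73, adjusted p = 0.00316 by edgeR), Comp, the substrate of Adamts7 and Adamts12 (1.37 ± 0.34, adjusted p = 0.00868 by edgeR), and the fibrillin gene Fbn2 (5.98 ± 1.06, adjusted p = 0.00161 by edgeR). Like A2m, Bcan and Fbn2 did not pass the count filter in comparisons without HPi-Lp mice, so the size of their rise is imprecise. The aggrecan gene Acan was not called in any comparison by edgeR. The versican gene Vcan was not called in HPi-Lp mice against Sham, but it was downregulated against Sham in HPi-Hp (-1.33 ± 0.31, adjusted p = 0.0146 by edgeR) and LPi-Lp mice (-1.17 ± 0.27, adjusted p = 0.0118 by edgeR). Against the other groups, 1 and 4 of the 9 were upregulated (5.01% and 7.9% of all genes).

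In all, 26 of the 50 members were called by edgeR in at least 1 of the 6 comparisons, 13 were tested without a call and 11 did not pass its count filter in any comparison. The share of all genes called in at least 1 of the 6 was not counted, and in a single comparison it was at most 22.2%. Of the members without a call in the main edgeR test, edgeR without the filter called Mmp8, Mmp10, Mmp24 and Mmp25 in at least 1 comparison. DESeq2 called these and Adamts18 and Adamtsl1. The 11 were Mmp1b, Mmp7, Mmp8, Mmp10, Mmp20, Mmp21, Mmp24, Mmp25, Adamts13, Adamts16 and Adamts18. Adamts13, the protease of von Willebrand factor, reached at most 8 counts in a library, Adamts16 at most 9 and Adamts18 at most 35. Exons of 13 members share bases with exons of another gene on the opposite strand, among them Timp3 (21.3% of its exonic bases, with Syn3), Mmp19 (22.3%, with Tmem198b) and Adamts8 (10.6%, with Gm29724), and the share of reads this affects was not tested.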

How the data were processed

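Aortic RNA of 16 mice was sequenced as 1 library per mouse. HISAT2 and mm10 were used by the authors for alignment, featureCounts 1.5.0-p3 (named in the submitters' processing notes) gave counts, and the deposited counts are raw whole numbers. The deposited FPKM were made by the authors from these counts, exonic length and library scaling factors. The strand setting of the counting is not given in the sources used here, so reads of overlapping genes on opposite strands may be shared. No column belonged to other samples (0).

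Groups came from the labels. Counts were tested with edgeR 4.0.16 (R 4.3.3; filterByExpr, TMM, quasi-likelihood) in 8 libraries per comparison, with Benjamini-Hochberg adjustment over all genes tested, and calls at an adjusted p up to 0.05 and a change of 1 or more on the log2 scale. FPKM gave levels and were not used in the main test. Labels name separate animals, so p-values measure the spread between mice. Alternatives used DESeq2 1.42.0, limma 3.58.1 on log2(FPKM + 1) or log2(FPKM + 0.1), other filters, RLE size factors, a replicate block, a joint fit of the 16 libraries and leaving out each library. The edgeR script was tested on simulated data. Tables and figures used Python 3.11.15, pandas 2.3.3 and matplotlib 3.10.9. Library depth limits genes with few counts, and gene levels near 0 are imprecise.

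Members and gene lists were chosen with earlier results of these data known. Genes named are the members called in at least 1 of the 6 comparisons, the TIMP genes, the 3 members with the highest mean FPKM, members that failed the count filter, and at most 4 called genes per pathway list, those with the smallest adjusted p against Sham. Vcan, Mmp8 and the members called in an alternative alone were added after their values were seen, and other uncalled members, Furin and Acan were named without values.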

Additional observations from a re-analysis of the deposited data

Results flagged for a closer look

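In 27 members, each group of 4 mice was checked for 1 mouse far from the other 3 (Dixon's test of the gap against the range), which made 108 groups. The test picked 6 groups, where chance alone gives about 1 in 20, or 5.4. Adamts10 was 69.8 FPKM in HPi-Lp replicate 1 and 42.8 to 46.6 in the others. Adamts8 was 9.15 FPKM in Sham replicate 1 and 11.4 to 11.8 in the others. Adamtsl2 was 1.84 FPKM in HPi-Hp replicate 1 and 3.24 to 3.47 in the others. Adamtsl3 was 2.27 FPKM in HPi-Lp replicate 4 and 2.82 to 2.85 in the others. Mmp2 was 20.2 FPKM in LPi-Lp replicate 2 and 17.7 in each of the others. Timp2 was 228 FPKM in HPi-Lp replicate 2 and 137 to 147 in the others.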

How the results depend on the processing

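Of 66 calls of a member in a comparison, 0 changed sign in any alternative, 48 were kept with each library left out in turn and 28 in every alternative. DESeq2 and RLE size factors lost 0 of 66 calls. DESeq2 made 15 further calls of members and edgeR without a count filter 10. Limma on log2(FPKM + 1), a scale that shrinks the changes of low genes, lost 22 of 63. It called 12 members in HPi-Lp against Sham and 3 each in HPi-Hp and LPi-Lp against Sham, where edgeR called 20, 8 and 7. Without a filter it called 11, 8 and 8 members in HPi-Lp against Sham, HPi-Hp and LPi-Lp mice (edgeR 20, 14 and 17), and 2 and 3 in HPi-Hp and LPi-Lp against Sham. With log2(FPKM + 0.1) it called 5 in HPi-Hp against Sham. With no fold threshold 13 were called in HPi-Hp and 13 in LPi-Lp mice against Sham. DESeq2 called 2 between HPi-Hp and LPi-Lp mice, where edgeR called 0. Leaving out single libraries gave 17 to 22, 10 to 15, 13 to 19, 4 to 9, 5 to 8 and 0 calls in the 6 comparisons in the order of the plot of shares called. The causes of these shifts were not tested.

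Replicate numbers gave no sign of pairing the mice. The correlation of deviations between same-numbered mice of different groups ranged from -0.288 to 0.543 (median -0.03, 24 pairs). Between differently numbered mice it ranged from -0.476 to 0.535 (median -0.004, 72 pairs). With the replicate number as a block, 18, 7, 13, 9, 7 and 0 members were called in the same order (edgeR without it 20, 14, 17, 8, 7 and 0), and 14 of the 66 calls were lost. Over all genes the block gave 3349, 371, 1271, 1557, 1448 and 10 calls, against 3666, 1315, 1931, 1932, 1748 and 0 without it.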
